A study of Sus scrofa with 24 samples.

Results

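S100 proteins are small calcium-binding proteins of vertebrates that mostly work as dimers. On binding calcium through their EF-hand motifs most of them expose a surface that docks to partner proteins such as annexins and myosin, and some are also released and act outside the cell as signals of inflammation. S100A8, S100A9 and S100A12 are abundant in neutrophils and monocytes, whereas S100A4, S100A6, S100A10 and S100A11 are made in many tissues, S100A4 being widely used as a marker of fibroblasts.

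The 7 S100 genes described here were measured in the liver of 24 pigs (Sus scrofa), with 1 array per pig, on a 1-colour Agilent design. A probe was taken as a member where the array's annotation named S100A4, S100A6, S100A8, S100A9, S100A10, S100A11 or S100A12, which gave 16 probes of the 43603 on the array. Of these, 15 passed the filter on dim signal, out of 29665 probes that passed in all. S100A6, S100A10 and S100A11 had 4 probes each, and the other 4 genes had 1 probe each. In all, 7 of the 5249 genes that the array names were described. They were selected on their group differences in these same pigs, so those differences are given as a description and are not evidence of their own.

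All pigs weighed 115 kg, and each group held 8. The first group came from a line with high residual feed intake (RFI), with feed restricted to what low RFI pigs were given (labelled RFIplR, here restricted high RFI). The second came from the same high RFI line, fed ad libitum (RFIpl, high RFI). The third came from the low RFI line, also fed ad libitum (RFIneg, low RFI). RFI is the feed an animal eats beyond what its growth and maintenance predict and a low value means efficient use of feed. Breed, sex and age are not given in the sources used here, and whole liver tissue was used.

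The tissue label was checked against markers of hepatocytes. The 8 measured markers, among them albumin (ALB) and transthyretin (TTR), averaged 8.51 to 8.67 in restricted high RFI pigs, 8.53 to 8.78 in high RFI pigs and 8.55 to 8.69 in low RFI pigs, far above the array's 75th percentile. Every level in this text is a log2 signal relative to that percentile, and every difference is a difference of such levels between group means. Arrays had 63.2% to 72.7% of their spots well above background and lay on 6 slides scanned on 2 days, each slide and each day holding pigs of all 3 groups. The groups were not balanced over the days. Scan day 1 held 5 restricted high RFI, 4 high RFI and 3 low RFI pigs, and scan day 2 held 3, 4 and 5. Restricted high RFI pigs 7 and 8, high RFI pigs 5 and 7 and slide 3 had stood apart from the rest in earlier results on these arrays. The larger shifts seen without them are given beside the values.

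S100A4, which binds non-muscle myosin and is linked with cell movement, was lowest in restricted high RFI pigs and highest in low RFI pigs. Its probe (A_72_P143901) ends near the AATAAA that commonly precedes the end of a messenger RNA, shown in capitals in bases 30 to 59 of the probe because the unnamed probe described below carries the same stretch. AATAAA, searched on the probe strand only, occurred in 10.5% of all probes kept.
S100A4: ctgatcaagttcAATAAAgattctgaaagc

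S100A4 levels in the 8 restricted high RFI pigs were 0.93, 1.19, 0.45, 1.16, 0.87, 0.55, 0.20 and 0.98. In the high RFI pigs they were 1.01, 0.97, 0.94, 1.52, 1.28, 1.41, 0.87 and 1.22. In the low RFI pigs they were 1.68, 2.29, 1.76, 1.39, 1.22, 2.03, 1.20 and 1.46. The highest restricted high RFI pig (1.19) lay just under the lowest low RFI pig (1.20), so these 2 groups did not overlap, while the high RFI pigs overlapped both.

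S100A4 averaged 0.79 ± 0.36 in restricted high RFI, 1.15 ± 0.24 in high RFI and 1.63 ± 0.39 in low RFI pigs (SD, n = 8 each). Restricted high RFI pigs were lower than low RFI pigs by 0.84 ± 0.16 (SE), which is 0.56 of the low RFI signal. This was the only one of the 15 S100 probes past the threshold, an adjusted p under 0.05 in limma over all probes, in that comparison. Over all probes the share called was 0.229% (68 of 29665), or 0.105% in the lower direction, and 0.135% did not overlap between these groups. Because the genes were chosen with this comparison known, nothing is read from 1 call in 15.

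High RFI pigs had 0.48 ± 0.16 less S100A4 signal than low RFI pigs, and restricted high RFI pigs 0.36 ± 0.16 less than high RFI pigs (SE). The first of these was -0.07 on scan day 1 and -0.78 on scan day 2. Neither passed the threshold, and no other S100 probe did in either comparison. Over all probes the share called was 0.162% (48) between high and low RFI pigs and 0% (0) between restricted and ad libitum high RFI pigs. In this last comparison limma called no probe. At an unadjusted p under 0.05 there were 1594 of 29665 probes, where chance alone would give a share of about 0.05. The 3 comparisons share arrays, so their values are not independent of each other.

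The S100A4 difference between restricted high RFI and low RFI pigs ran from -0.16 on slide 1 to -2.09 on slide 5. Since these groups did not overlap, it had to lie below 0 on each of the 6 slides and on each day. A slide held only 1 or 2 pigs of each of these groups, and slide 5 held 1 of each. On scan day 1 the difference was -0.40 (5 restricted high RFI and 3 low RFI pigs). On scan day 2 it was -1.28 (3 and 5 pigs), and its call was lost within either day. The call was also lost with slide as a block (-0.85), without slide 3 (-0.92), without slide 6 (-0.85), under another background correction (-0.70), without restricted high RFI pigs 7 and 8 (-0.77) and without pig 7 alone (-0.75). The direction stayed the same in each of these, which it had to do where pigs were only left out.

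**Figure D1:**
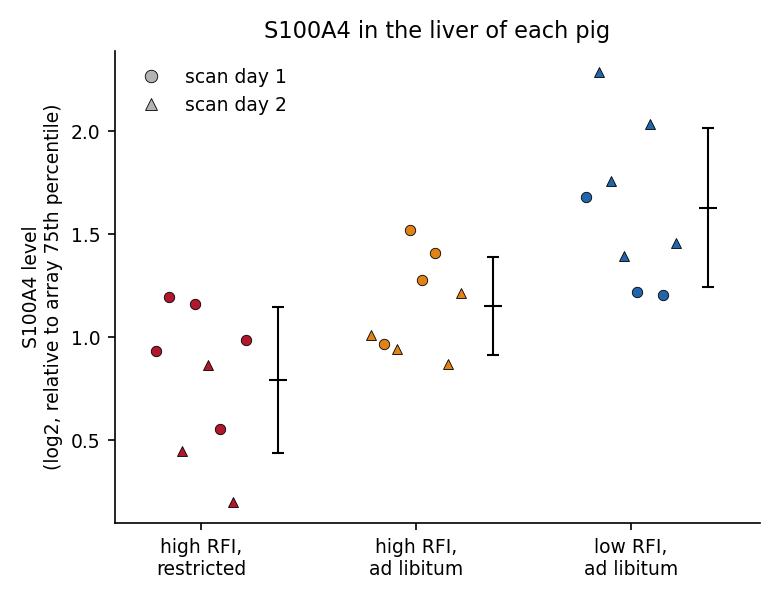
S100A4 level of each pig (log2, relative to the array's 75th percentile), in restricted high RFI, high RFI and low RFI pigs from left to right. Circles mark scan day 1, triangles scan day 2, and bars show mean ± SD (n = 8). All restricted high RFI pigs lie at or below 1.19 and all low RFI pigs at or above 1.20.

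A probe with no gene name in the files (A_72_P505367) shared a run of 54 identical bases with the S100A4 probe, including the whole stretch printed above. It was found after its values were seen, as the probe that followed S100A4 most closely, with r = 0.98 over the 24 pigs once group means were removed. Its median level was 0.87 in restricted high RFI, 1.16 in high RFI and 1.76 in low RFI pigs. It was lower by 0.91 ± 0.16 (SE) in restricted high RFI than in low RFI pigs and was called there, by 0.52 ± 0.16 between high and low RFI pigs, and by 0.39 ± 0.16 between restricted and ad libitum high RFI pigs. Restricted high RFI pigs reached 1.32 on this probe and low RFI pigs started at 1.27, so here the groups overlapped slightly. Because the sequences largely coincide, its values are not independent of those of S100A4.

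Markers of other liver cells were set beside S100A4. Of a list of 16 genes of stellate cells and fibroblasts, 11 were measured, and their mean level was 0.44 to 1.0 in restricted high RFI pigs, 0.52 to 1.23 in high RFI pigs and 0.96 to 1.41 in low RFI pigs. Between restricted high RFI and low RFI pigs 10 of the 11 lay below 0 and none was called. The collagen gene COL1A2 differed by -0.84 ± 0.21 and the mural cell gene RGS5 by -1.29 ± 0.30, while lumican (LUM) was at 0.10 ± 0.15 (SE). Of a list of 10 endothelial genes, 8 were measured, all below 0 in this comparison with none called. Their mean level was 0.86 to 1.67 in restricted high RFI, 0.73 to 1.59 in high RFI and 0.68 to 1.67 in low RFI pigs. Of a list of 15 monocyte and macrophage genes 9 were measured, 7 above 0 and 2 below, with none called. In bulk tissue fewer cells of a type and less RNA per cell cannot be told apart, and the part of these cells in the S100A4 difference was not tested.

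Within groups, S100A4 ran against the level of the hepatocyte list. Pearson's r was -0.60 (n = 24, permutation p within groups = 0.00059, two-sided, adjusted p = 0.041 over 70 relations of the members with 10 lists). Spearman's rho was -0.58 (p = 0.0014, adjusted p = 0.098) and did not pass. On the separate scan days r was -0.26 and -0.69, and without the 2 pigs farthest out in S100A4 it was -0.60. This was the only one of the 70 relations to pass by Pearson's r, and none passed by Spearman's rho. With the stellate and fibroblast list S100A4 had r = 0.38 (adjusted p = 0.345, permutation test). With the endothelial list r was 0.51 and rho 0.53 (adjusted p = 0.18 and 0.21, permutation test), and r was 0.10 and 0.63 on the scan days. With the monocyte and macrophage list r was 0.48 and rho 0.56 (adjusted p = 0.18 and 0.20, permutation test), and r was 0.09 and 0.33 on the scan days.

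Of 4363 named genes compared, SRGN followed S100A4 most closely within groups. SRGN encodes serglycin, a proteoglycan of the secretory granules of blood-derived cells, and had r = 0.89 over 24 pigs. The next were the transcription factor gene GATA3 (r = 0.77) and the tyrosine kinase gene SYK (r = 0.75). The shared pattern was one between pigs and not between groups, since SRGN differed by 0.11 ± 0.15 (SE) between restricted high RFI and low RFI pigs. All such likeness values describe pigs that share slides and processing, and carry no test.

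S100A8, S100A9 and S100A12 are the calgranulins. S100A8 and S100A9 pair to form calprotectin, a major protein of the neutrophil cytosol that withholds metal ions from microbes, and S100A12 is a ligand of the receptor RAGE. Their 60-base probes are shown whole because the 3 signals moved together, and shared sequence could let 1 RNA light several probes. The capitals mark the longest run that each shares with another of the 3, which was 6 bases. Probes were compared only with each other and not with whole transcripts, so whether 1 RNA lights several of them was not tested.
S100A8: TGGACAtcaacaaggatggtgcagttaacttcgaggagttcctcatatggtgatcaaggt
S100A9: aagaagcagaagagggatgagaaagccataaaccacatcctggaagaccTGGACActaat
S100A12: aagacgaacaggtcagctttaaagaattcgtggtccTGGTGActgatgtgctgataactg

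The 3 calgranulins varied more between pigs than the other 12 kept probes of the 7 genes. S100A8 had a lowest, median and highest level of -4.07, -3.0 and -1.51 in restricted high RFI pigs, of -4.24, -2.82 and -2.28 in high RFI pigs and of -3.83, -2.67 and 0.06 in low RFI pigs. From the lowest to the highest of the 24 pigs this was a 19.7-fold range of signal. For S100A9 the same values were -5.16, -3.87 and -2.69 in restricted high RFI pigs, -5.04, -3.82 and -3.39 in high RFI pigs and -4.24, -3.65 and -1.83 in low RFI pigs. The lowest of these, -5.16, was not well above background and bounds that pig only from above. For S100A12 they were -3.60, -2.91 and -1.46 in restricted high RFI pigs, -3.62, -2.78 and -2.44 in high RFI pigs and -3.92, -2.66 and -0.27 in low RFI pigs, a 12.6-fold range. The groups overlapped widely for each of the 3 genes, and the medians of the groups lay closer together than their extremes. Those 12 had ranges from 1.60-fold to 4.24-fold.

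The same few pigs stood high for all 3 genes. Low RFI pig 6 was the highest of the 24 for each, at 0.06 for S100A8, -1.83 for S100A9 and -0.27 for S100A12. Low RFI pig 8 came next, at -0.91, -2.41 and -1.31. In the restricted high RFI group pigs 7 and 8 were the highest for S100A8, at -1.51 and -1.61.

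Across pigs, with group means removed, the 3 genes rose and fell together. S100A8 and S100A12 had r = 0.95 and rho = 0.92, S100A9 and S100A12 had r = 0.91 and rho = 0.95, and S100A8 and S100A9 had r = 0.87 and rho = 0.85 (n = 24 each). Each r had a permutation p of 1e-05 within groups, two-sided, which is the smallest that the 100000 permutations can give, and an adjusted p of 9e-05 over the 27 relations tested among the members. For rho the adjusted p was 0.00018 for S100A8 with S100A9 and 0.000135 for the other pairs, by the same permutation test. That test exchanged pigs within groups whatever their slide, so processing shared by the arrays of a slide was not taken out. Without the 2 pigs farthest out, r was 0.91 for S100A8 with S100A12, 0.89 for S100A9 with S100A12 and 0.81 for S100A8 with S100A9. On scan day 1 these r values were 0.92, 0.95 and 0.81, and on scan day 2 they were 0.97, 0.92 and 0.91. None of the 3 passed that test with S100A4, S100A6, S100A10 or S100A11, where r lay between -0.35 and 0.27.

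**Figure D2:**
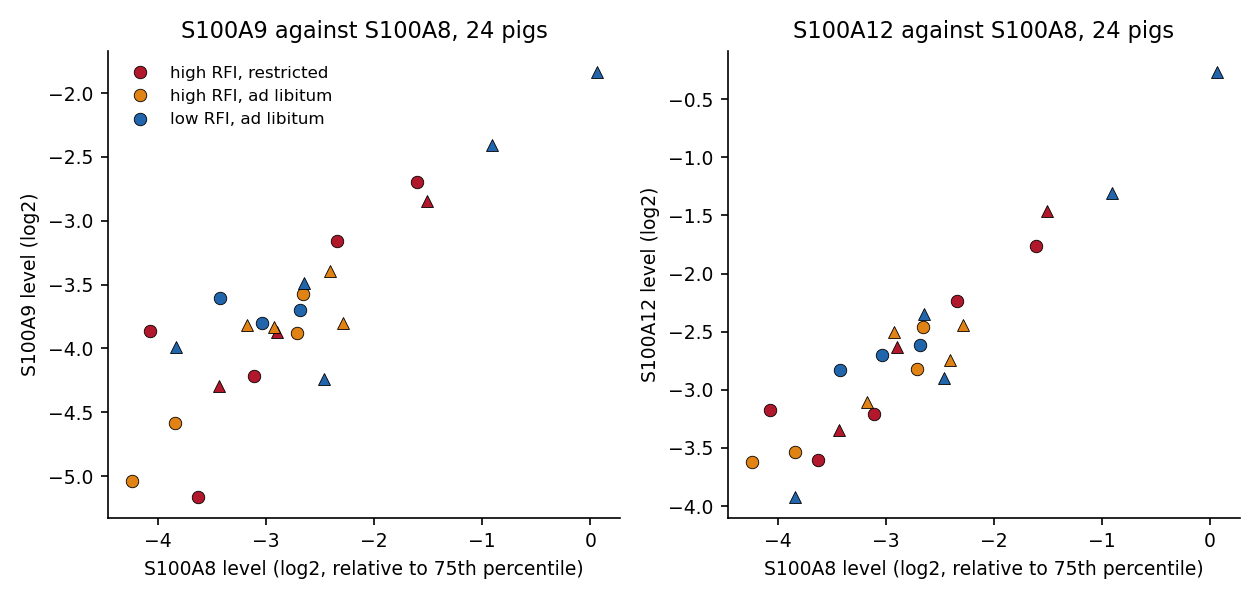
S100A9 (left) and S100A12 (right) against S100A8, as log2 levels relative to the array's 75th percentile, 1 point per pig (24), coloured by group, with circles for scan day 1 and triangles for scan day 2. The points run along a rising line in all 3 groups (r within groups 0.87 for S100A9 and 0.95 for S100A12), with low RFI pig 6 at the top right of both panels.

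No calgranulin passed the threshold in any comparison. High RFI pigs were below low RFI pigs by 0.66 ± 0.47 for S100A8, 0.61 ± 0.35 for S100A9 and 0.54 ± 0.39 for S100A12 (SE). Without low RFI pig 6 these differences were -0.31, -0.39 and -0.25, so that 1 pig carried much of each. Restricted high RFI pigs were below low RFI pigs by 0.46, 0.38 and 0.32 in the same order, and without pig 6 by 0.11, 0.16 and 0.019. Without restricted pigs 7 and 8 they were below by 0.88, 0.71 and 0.67, and without slide 3 by 0.27, 0.16 and 0.15. These differences were 0.10, -0.12 and -0.08 on scan day 1 and -0.66, -0.48 and -0.33 on scan day 2. Between restricted and ad libitum high RFI pigs the differences were 0.21, 0.23 and 0.23, and without restricted pigs 7 and 8 they were -0.22, -0.10 and -0.13.

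Neutrophil markers were set beside the calgranulins. Of a list of 20, which held none of the 3 genes, 8 were measured above the filter, 11 had no named probe, and myeloperoxidase (MPO), a defining enzyme of neutrophil granules, did not pass the filter. The mean level of the 8 was -2.50 to -2.02 in restricted high RFI pigs, -2.37 to -2.11 in high RFI pigs and -2.42 to -1.91 in low RFI pigs. Its r with S100A8 and with S100A9 was 0.52 and with S100A12 it was 0.45 (n = 24). None passed after adjustment over the 70 relations (adjusted p = 0.18, 0.18 and 0.345, permutation test within groups). Without the 2 pigs farthest out r was 0.29 for S100A8, 0.45 for S100A9 and 0.53 for S100A12. Over all 24 pigs rho was 0.41, 0.43 and 0.33 in the same order. Acute phase genes, 13 of 18 measured, averaged 5.49 to 6.41 in restricted high RFI, 5.41 to 5.97 in high RFI and 5.45 to 5.90 in low RFI pigs. Their mean level had r = 0.44 with S100A8, 0.44 with S100A9 and 0.49 with S100A12 (adjusted p = 0.18, 0.27 and 0.18, permutation test), so none passed. These r values were 0.72, 0.74 and 0.84 on scan day 1 and 0.39, 0.33 and 0.41 on scan day 2. Without the 2 pigs farthest out they were 0.47, 0.46 and 0.67, and over all 24 pigs rho was 0.50, 0.46 and 0.57. Both lists hold LCN2, so they are not fully separate. LCN2 was well above background on 16 of the 24 arrays, and PGLYRP1, also among the 8 neutrophil markers, on 18. The part of either list in the calgranulin levels was not tested. Of named genes, lactotransferrin (LTF) followed S100A8 (r = 0.76) and S100A12 (r = 0.74) most closely. LTF, a protein of neutrophil granules, is itself among the 8 neutrophil markers measured. RAE1, an mRNA export factor, followed S100A9 most closely (r = 0.75).

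S100A6, or calcyclin, is a dimer found in fibroblasts and epithelia that binds calcium-dependently to several annexins. Its brightest probe (A_72_P754446) had a lowest, median and highest level of 0.91, 1.01 and 1.88 in restricted high RFI pigs, of 0.89, 1.51 and 1.85 in high RFI pigs and of 1.09, 1.39 and 2.43 in low RFI pigs. Most restricted high RFI pigs lay low, yet 2 of the 8 reached the upper part of the range, and the groups overlapped. The difference was -0.28 ± 0.18 between restricted high RFI and low RFI pigs, -0.25 ± 0.18 between restricted and ad libitum high RFI pigs, and -0.03 ± 0.18 between high and low RFI pigs (SE).

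All 4 S100A6 probes lay below 0 in the first of these comparisons (-0.09 to -0.38) and in the second (-0.08 to -0.31), and none was called. The probes tracked one another over the pigs with r between 0.66 and 0.97. On A_72_P755324 the lowest levels of all pigs, 0.37, 0.67 and 0.68, were those of arrays on slide 6. The other array of that slide was at 0.91. The closest pair, A_72_P095801 and A_72_P754446, had identical bases in 58 of 61 aligned columns, so they are no separate measurements. Low RFI pig 6 was the highest on 9 of the 15 S100 probes kept. These were the calgranulin probes, all 4 S100A6 probes and S100A11 probes A_72_P041606 and A_72_P423459. Without that pig the brightest S100A6 probe differed by -0.14 between restricted high RFI and low RFI pigs, and by 0.11 between high and low RFI pigs. Without high RFI pigs 5 and 7 the difference between high and low RFI pigs was 0.05. Among named genes DKK3, a secreted member of the dickkopf family, was nearest to S100A6 (r = 0.80), followed by the growth factor binding protein gene IGFBP6 (r = 0.76) and the galectin gene LGALS1 (r = 0.75).

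S100A11, or calgizzarin, docks to annexin A1. Its 4 probes did not give a common picture, and their sequences are shown because these differ in kind. Probes A_72_P423459 and A_72_P041606 share a run of 26 bases, in capitals in both. In A_72_P324328, whose bases 18 to 47 are shown, the capitals mark a 7-base motif found in many unrelated probes. In A_72_P023026, whose first 30 bases are shown, the capitals mark 19 bases whose reverse complement aligns with A_72_P423459 at 17 of 19 columns.
A_72_P423459: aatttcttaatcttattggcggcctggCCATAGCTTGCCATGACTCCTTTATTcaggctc
A_72_P041606: CCATAGCTTGCCATGACTCCTTTATTaagt
A_72_P324328: ggGGAGTTCttgtggctcagcaggttagga
A_72_P023026: cCCAATAAAATTAAAAAATTcttggaaatc

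The first pair tracked each other, with r = 0.93 over the 24 pigs within groups. A_72_P041606 had a lowest, median and highest level of 1.21, 1.66 and 1.79 in restricted high RFI pigs, of 1.35, 1.62 and 1.95 in high RFI pigs and of 1.33, 1.63 and 2.06 in low RFI pigs. The groups thus overlapped almost entirely. Its difference was -0.09 ± 0.11 between restricted high RFI and low RFI pigs, -0.03 ± 0.11 between high and low RFI pigs and -0.06 ± 0.11 between restricted and ad libitum high RFI pigs (SE).

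A_72_P324328, the brightest S100A11 probe, followed the other pair weakly, with r = 0.33 for A_72_P041606 and 0.08 for A_72_P423459. Its levels ran from 1.59 to 2.50 in restricted high RFI pigs, from 1.16 to 2.53 in high RFI pigs and from 0.49 to 2.35 in low RFI pigs. The 4 lowest values of the 24 pigs, 0.49, 1.16, 1.30 and 1.59, were those of the 4 arrays on slide 6, which held 1 restricted high RFI, 1 high RFI and 2 low RFI pigs. Its difference was 0.27 ± 0.24 between restricted high RFI and low RFI pigs and 0.33 ± 0.24 between high and low RFI pigs (SE), opposite in sign to those of A_72_P041606. Without slide 6 these differences were 0.02 and 0.15, and with slide as a block they were 0.15 and 0.20. Within scan day 1 they were 0.01 and 0.12, and within scan day 2, which holds slide 6, 0.37 and 0.42. Without slide 6 its r was -0.15 with A_72_P041606 and -0.22 with A_72_P423459 (n = 20). With all 24 pigs its r with S100A6 probe A_72_P755324, whose lowest arrays were also on slide 6, was 0.76. No S100A11 probe was called in any comparison.

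At r above 0.9, 116 other probes followed A_72_P324328 within groups, against 0 to 2 for each other kept probe of the 7 genes. That number rested on slide 6. Without its arrays 2 probes followed at r above 0.9, both among the 116, and the median r of the 116 was 0.60. In 92 of the 116 the 4 lowest of the 24 pigs were also those of slide 6. The motif GGAGTTC, searched on both strands, was present in 24.1% of those 116 probes (28), compared with 1.5% of all probes kept (446). It was not set before the values were seen, so these shares are a description and no test. Both probes that followed without slide 6 held it. The S100A8 probe printed above holds it too, and 1 other probe followed that one at r above 0.9. The 12 bases that follow 2 bases after the motif, GTGGCTCAGCAG, occurred in 10 other probes on the array on one strand or the other. Repeated elements of the pig genome hold short sequences that recur in many transcripts. Whether one is present here was not tested, and the match of letters shows only that the sequence is shared. What set the arrays of slide 6 apart was not tested either. With all 24 pigs the named genes nearest to this probe were CD36 (r = 0.97), SLC2A11 (r = 0.97) and SLC29A1 (r = 0.96). The fourth probe, A_72_P023026, was well above background in 0 restricted high RFI pigs, 1 high RFI pig and 1 low RFI pig and was not tested.

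**Figure D3:**
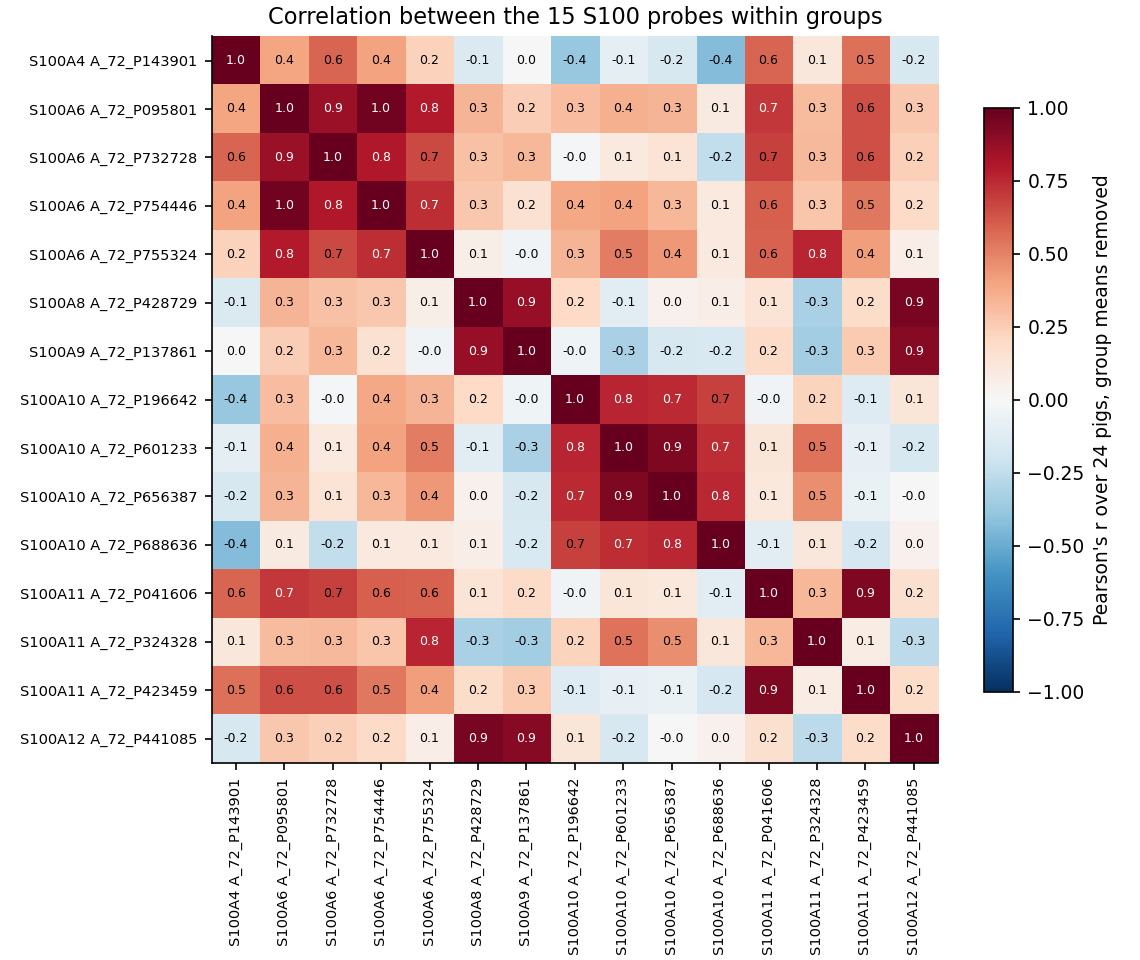
Pearson's r between the 15 S100 probes kept, over 24 pigs with group means removed, from blue (negative) through white (0) to red (positive), with each r written in its cell. S100A8, S100A9 and S100A12 form a block (0.87 to 0.95) and the S100A10 probes another (0.68 to 0.93). S100A11 probe A_72_P324328 stands apart from the other S100A11 probes and has r = 0.76 with S100A6 probe A_72_P755324.

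Read through A_72_P041606, S100A11 was tied to S100A4 and to S100A6. With S100A4, r was 0.58 and rho 0.56 (n = 24, adjusted p = 0.026 and 0.032 over the 27 relations, permutation test within groups). On the separate scan days r was 0.67 and 0.51, and without the 2 pigs farthest out it was 0.61. With S100A6, r was 0.60 and rho 0.57 (adjusted p = 0.026 and 0.032, permutation test), r on the scan days was 0.59 and 0.71, and without the 2 pigs farthest out it was 0.41. S100A4 and S100A6 themselves had r = 0.40, which did not pass (adjusted p = 0.29, permutation test). Probe A_72_P041606 was substituted for the brightest probe after the values were seen. With the brightest probe, r was 0.12 for S100A4 and 0.28 for S100A6, and neither passed.

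S100A10, or p11, is the family member that no longer needs calcium, and it holds annexin A2 in a complex at the cell membrane. Its brightest probe (A_72_P196642) had a lowest, median and highest level of 3.55, 3.99 and 4.41 in restricted high RFI pigs, of 3.38, 3.73 and 4.03 in high RFI pigs and of 3.37, 3.67 and 3.96 in low RFI pigs. Restricted high RFI pigs lay highest on balance, with 4 of the 8 above every high RFI pig, and the groups overlapped. Restricted high RFI pig 3 was the highest pig on all 4 S100A10 probes.

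The S100A10 difference was 0.35 ± 0.12 between restricted high RFI and low RFI pigs, 0.23 ± 0.12 between restricted and ad libitum high RFI pigs, and 0.12 ± 0.12 between high and low RFI pigs (SE). The other 3 probes differed by 0.14 to 0.22 in the first comparison and by 0.17 to 0.22 in the second. All 4 thus lay above 0 in both, opposite to S100A4 and S100A6, and none was called. Between high and low RFI pigs the 4 probes lay on both sides of 0, from -0.06 to 0.12. On scan day 1 and scan day 2 the brightest probe differed by 0.25 and 0.55 between restricted high RFI and low RFI pigs. The 4 probes share at most 8 bases in a row and tracked one another with r between 0.68 and 0.93. The ribosomal protein gene RPS20 was the named gene nearest to S100A10 (r = 0.71).

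**Figure D4:**
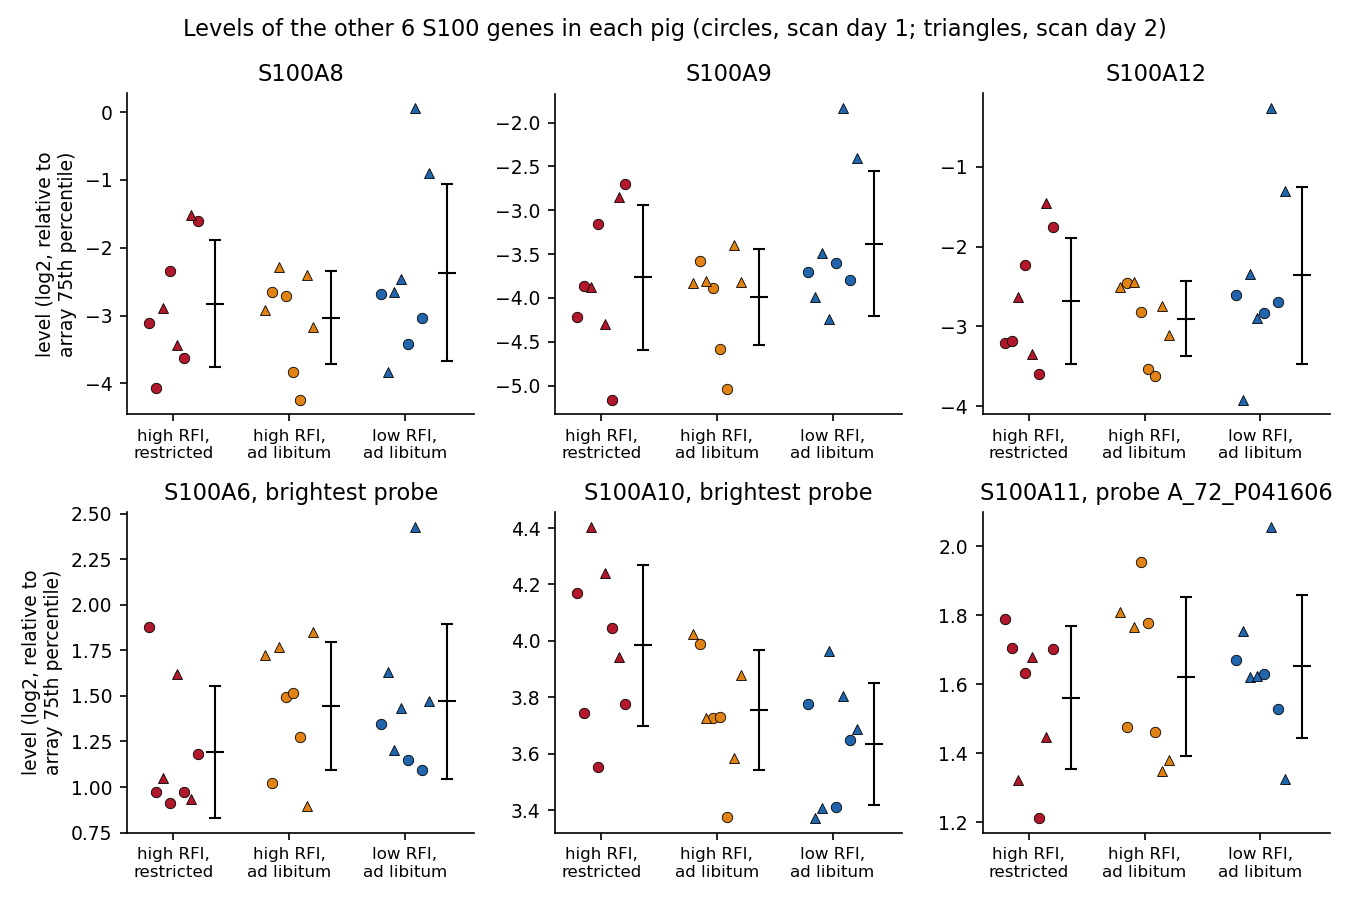
Levels of S100A8, S100A9, S100A12, S100A6, S100A10 and S100A11 in each pig (log2, relative to the array's 75th percentile), in restricted high RFI, high RFI and low RFI pigs from left to right, with mean ± SD (n = 8) at the right of each group. Circles mark scan day 1 and triangles scan day 2, and each panel has its own scale. The groups overlap in every panel.

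Taken as a set, the 15 probes lay on both sides of 0 in every comparison. Between restricted high RFI and low RFI pigs 5 lay above 0 and 10 below, with a median of -0.09, compared with -0.005 over all probes. Between high and low RFI pigs 3 lay above and 12 below, with a median of -0.05, compared with 0.004 over all probes. Between restricted and ad libitum high RFI pigs 7 lay above and 8 below, with a median of -0.01, the same as over all probes (-0.01). Several of these probes read 1 gene, so they are not separate observations. The genes were also chosen on these differences, so nothing is read from the gap to the median of all probes. With the brightest probe of each of the 7 genes, 2 lay above and 5 below in the first 2 comparisons, with medians of -0.32 and -0.48. S100A11 was above 0 there through A_72_P324328, and with A_72_P041606 it lay at -0.09 and -0.03. The calgranulins, all below 0 there, moved together, so the 7 genes are not separate observations either. In the third, 4 lay above and 3 below, with a median of 0.21.

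**Figure D5:**
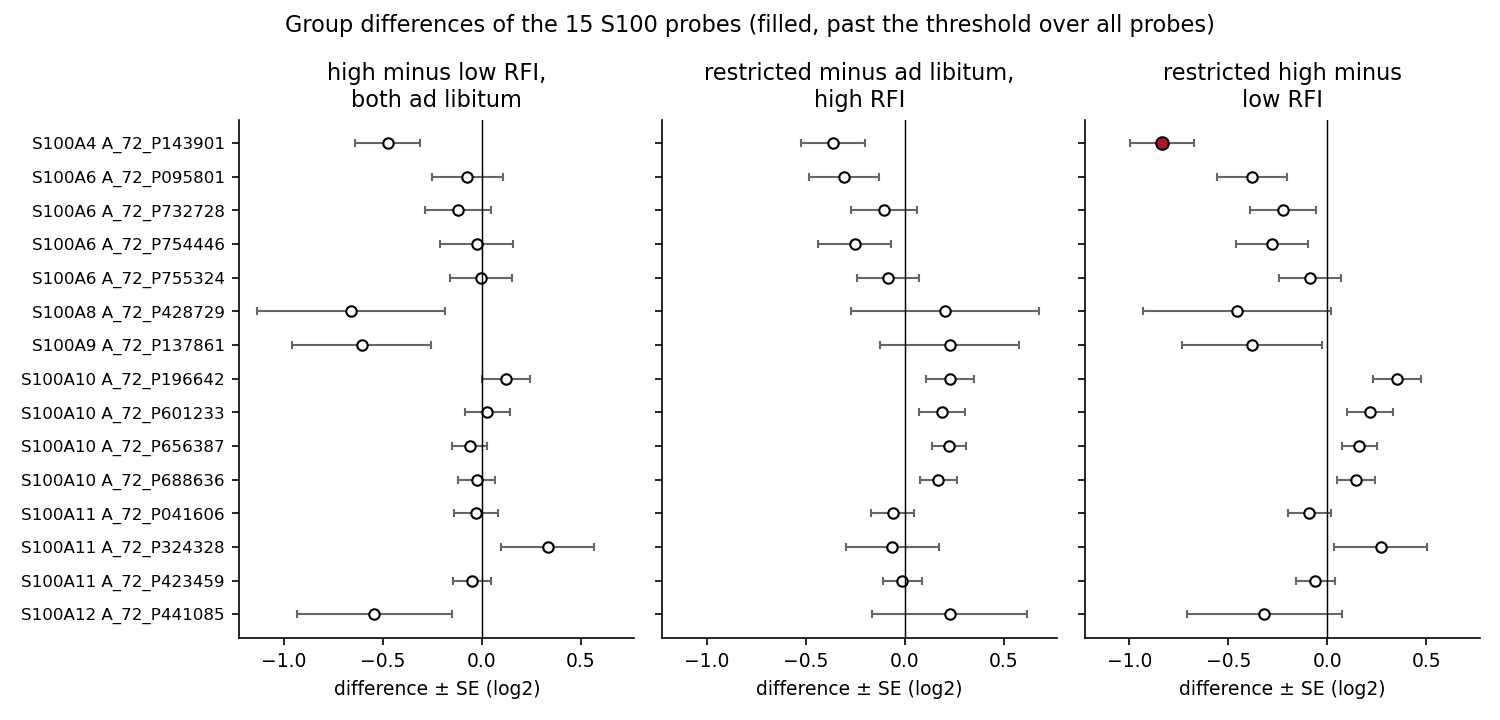
Difference ± SE (log2) of the 15 S100 probes kept, for high minus low RFI, restricted minus ad libitum high RFI, and restricted high minus low RFI pigs (n = 8 each). The filled point, S100A4 at -0.84, is the only one past the threshold over all probes, and the S100A10 probes lie right of 0 in both comparisons of restricted pigs.

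Partners and receptors of these proteins were examined next. Of a list of 24 partners and receptors, 12 were measured above the filter, the RAGE gene AGER did not pass it, and the other 11 had no named probe. None of the 12 was called in any comparison. Annexin A2 (ANXA2), the partner of S100A10, differed by -0.11 ± 0.26 between restricted high RFI and low RFI pigs, and annexin A1 (ANXA1), the partner of S100A11, by -0.21 ± 0.18 (SE). TLR4, a receptor for extracellular S100A8, differed by 0.13 ± 0.15 (SE). In that comparison 6 of the 12 lay above 0 and 6 below, with a median of 0.01.

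Other S100 genes on the array were those left when the 7 were selected on their group differences. They are therefore no unselected background, and nothing is read from a contrast with the 7. These were S100A2, S100A3, S100A5, S100A7-like, S100A13, S100A14, S100A16 and S100G, with 17 probes, of which 14 probes of 6 genes passed the filter. None was called in any of the 3 comparisons. Their differences ran from -0.64 ± 0.47 (S100A2, restricted high RFI against low RFI) to 0.65 ± 0.37 (S100G, high against low RFI, SE). The S100G probe at that end was well above background on 17 of 24 arrays. Another S100G probe, well above background on all 24, differed by -0.30 ± 0.17 (SE) in the same comparison. S100A16, with 5 probes, stayed within 0.17 of 0 throughout.

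In the RefSeq annotation of the pig assembly Sscrofa11.1, used here for gene order only, all 7 genes lie on the same chromosome. They follow one another as S100A4, S100A6, S100A8, S100A12, S100A9, S100A11 and S100A10. S100A8, S100A12 and S100A9, whose levels moved together, are direct neighbours, with 0 protein-coding genes between them. S100A4 and S100A6 are separated by 1 such gene and S100A6 and S100A8 by 3. S100A11 and S100A10, also direct neighbours, lie 29 protein-coding genes beyond S100A9. They had r = 0.22 with the brightest S100A11 probe and -0.03 with A_72_P041606, and neither passed. The files place the probes on no named build, so no positions are given.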

How the data were processed

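Total RNA of each pig (150 ng) was labelled with Cy3, per the labels' protocols. Arrays had 45220 features, 1417 of them controls, and were read by Feature Extraction 10.7.3.1, per the file headers. Deposited intensity columns hold that software's processed signal. Deposited flags of 0 or 1 (score columns per the file headers) mark spots well above background, saturated or outlying. The authors also deposited log2 values for 27564 features, which match the processed signal on the log2 scale after centring each array on the median of those features. The submitters' processing notes name R 2.10.0.

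From the intensity values, log2 signal minus each array's 75th percentile was taken, outlier spots were left out and spots of a probe averaged. Probes were kept where well above background on at least 6 of 8 arrays of a group. Differences came from limma 3.58.1 in R 4.3.3 on all 24 arrays, with Benjamini-Hochberg adjustment over 29665 probes and a threshold of 0.05. The fit was tested on simulated data. Relations across pigs used deviations from group means and 100000 permutations within groups (Python 3.11.15, numpy 2.4.6, scipy 1.17.1). These permutations did not take slide into account. Probes were aligned with Biopython 1.88 and plots drawn with matplotlib 3.10.9. A gene with several probes is represented by its brightest kept probe. Named genes were the members, the partners ANXA2, ANXA1 and TLR4 and the 3 genes nearest to each member, with a few others singled out after their values were seen (A_72_P505367, COL1A2, RGS5, LUM). The motif GGAGTTC was not set in advance either. Members and lists were chosen with earlier results of these data known. The number of arrays limits the precision. Alternatives were the background correction, normalization, filter, slide, scan day, pig number, array weights, left-out arrays, the authors' table and the probe of a gene.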

Additional observations from a re-analysis of the deposited data

Results flagged for a closer look

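In 3 of the 45 groups of 8 pigs examined (15 probes in 3 groups), 1 pig lay far from the others by Dixon's test. Chance flags about 1 group in 20. Low RFI pig 6 was at 2.43 on S100A6 probe A_72_P754446, where the next low RFI pig was at 1.63, and at 2.30 on the near-identical S100A6 probe A_72_P095801, where the next was at 1.56. High RFI pig 7 was at 1.16 on S100A11 probe A_72_P324328, where the next high RFI pig was at 2.24. That pig was the high RFI array of slide 6, and the other 3 arrays of that slide were also low on this probe.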

How the results depend on the processing

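Of 390 repeats of the members' differences, 381 kept their side of the threshold and moved by less than the spread between pigs. The S100A4 call between restricted high RFI and low RFI pigs (-0.84) held in 10 of 18 settings. It was lost with normexp background correction (-0.70), slide as a block (-0.85), within scan day 1 (-0.40), within scan day 2 (-1.28), with only these 2 groups in the fit (-0.84), without slide 3 (-0.92), without slide 6 (-0.85, chosen after the data were seen) and without restricted pigs 7 and 8 (-0.77). With each of the 24 pigs left out in turn it ran from -0.90 to -0.74 and was lost once, without restricted pig 7 (-0.75, adjusted p = 0.0537 in limma). The S100A4 difference between high and low RFI pigs was -0.073 within scan day 1. S100A8 turned to 0.10 within scan day 1 between restricted high RFI and low RFI pigs, where it was -0.46 over both days.

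Counts of all probes called between high and low RFI pigs (48) were 5 with normexp, 28 without the filter, 5 and 10 within scan days 1 and 2, 82 with array weights, 28 without slide 3 and 23 without slide 6. Between restricted high RFI and low RFI pigs (68) they were 13 with normexp, 36 and 10 within scan days 1 and 2, 32 with only these groups in the fit, 24 without slide 3, 40 without slide 6 and 25 without restricted pigs 7 and 8. Between restricted and ad libitum high RFI pigs (0) there was 1 within scan day 2 and 2 with array weights. Normexp moved the median of all probes between restricted high RFI and low RFI pigs to -0.107. The cause of these changes was not tested, beyond the smaller number of arrays in some settings.

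The labels number the pigs 1 to 8 in each group. Same-numbered pigs did not deviate together in every pair (correlations from -0.19 to 0.42), so the number is not taken as a pairing. With the number as a replicate block, 50 probes were called between high and low RFI, 0 between restricted and ad libitum high RFI, and 103 between restricted high RFI and low RFI pigs, and no call of an S100 gene changed. The normalization, filter and array weights changed no S100 call.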
